A study of Mus musculus with 54 samples.

Results

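The 10 genes described here encode proteins of the NF-kappa-B system. They are the Rel family subunits Nfkb1, Nfkb2, Rel, Rela and Relb, the classical inhibitors Nfkbia, Nfkbib and Nfkbie, and Nfkbiz and Bcl3 of the nuclear I-kappa-B family members. Nfkbid is not among the 10 and is counted below with the negative regulators. They were taken from the table of read counts by gene symbol, and all 10 were found among its 16632 genes. NF-kappa-B dimers of Rel family proteins are held in the cytoplasm by I-kappa-B proteins. Signals from Toll-like, TNF and interleukin-1 receptors lead to phosphorylation and breakdown of the inhibitors, and the freed dimers bind kappa-B sites in DNA. Several subunit and inhibitor genes are themselves targets of the pathway, and in microglia, which are the macrophages of brain tissue, it drives production of cytokines and chemokines. RNA was measured by 3′ end sequencing, which counts reads near the poly(A) end of transcripts.

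The cells were primary microglia of neonatal C57BL/6 mice, with no genetic alteration given in the labels, grown in mixed flasks that each held the cells of 2 brains and shaken off the astrocyte layer. Untreated_Ctrl cells received nothing further. The aSyn_Donor cells and all donors had received 1 µM of Atto-488-labelled alpha-synuclein (aSyn), the protein that aggregates in Parkinson disease, for 14 h. Acceptors had received the dye CellTracer Violet and no aSyn of their own. Donors and acceptors were co-cultured and then sorted apart by flow cytometry, and the groups are labelled 0, 15, 30, 60, 150 or 300 min. Whether the untreated and aSyn-only cells passed through the sorter is not stated in the labels.

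There were 54 libraries of 7807389 to 15537493 counts from 4 experiments, numbered in the sample titles. The 6 untreated libraries came from 4 experiments and were summed to 4 units, aSyn-only cells gave 4 libraries, and every co-culture group had 4 except 3 for donors at 0 and 60 min and for acceptors at 0 and 300 min. Experiment 4 is missing at 0 min, experiment 2 among donors at 60 min and experiment 3 among acceptors at 300 min. The labels do not say that the experiments were separate animals, so the p-values rest on the spread among these numbered experiments. Where the experiment number is in the fit as a block, they rest on the spread left after each experiment's own level is removed. The libraries of experiment 4 carry a separate range of numbers in the sample titles, and the ribosomal RNA precursor took 18.2% of their counts against 6.60% in the others, so the called comparisons are also given without it. The labels also give the experiments different culture passages (3, 1, 2 and 2). The microglial markers Csf1r and C1qa had at least 4948 counts in every unit, while P2ry12 and Tmem119, markers of microglia in intact brain, had medians of 73.5 and 55.5 counts. Of 8 astrocyte markers, Gfap and Aqp4 had the lowest medians, 2 and 0 counts, and Aldh1l1 and Aldoc the highest, 64 and 59 counts. Slc1a3 had a median of 35.5 counts and reached 566, and the oligodendrocyte marker Mbp had a median of 971 counts.

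Expression is given as CPM (counts scaled to a common library size) in the order of experiments 1 to 4. Fold changes are log2 values with standard errors, and a gene counts as called where edgeR's quasi-likelihood F test over 13169 genes, all 10 described here among them, gave an adjusted p (Benjamini-Hochberg) below 0.05. The lowest count of any of the 10 in any unit was 111, for Nfkbie. Same-numbered libraries deviated together, so results are given both with no block and with the experiment number as a block. In these bulk samples, fewer expressing cells and less RNA per cell cannot be told apart.

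Promoter sequence is shown first, because kappa-B sites there are the route by which the pathway is known to act on its own genes. RefSeq (GRCm38.p6) held promoter windows for 7 of the 10 genes, in 9 windows, and named none for Nfkb1, Relb and Nfkbiz. In the 250 bases before a transcription start, 6 of the 9 windows and 4 of the 7 genes held at least 1 match to the kappa-B consensus on either strand. Among all 32851 windows in the table, 2382 (7.25%) held one. The matching genes were Nfkb2, Rel, Nfkbia and Nfkbie, with 7 separate sites after overlapping matches were merged. Rela, Nfkbib and Bcl3 held no match in these windows. A match is a description of the letters and was not tested for binding.

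The stretches that hold the sites follow, 5′ to 3′ on the strand of the gene, with the matched bases in capitals. The Nfkbia stretch is chr12:55492648-55492897 (minus strand), with its site 29 to 20 bases before the start. The Nfkbie stretch is chr17:45555450-45555699 (plus strand), with its site 106 to 97 bases before the start. The Rel stretch is chr11:23770971-23771219 (minus strand), with its site 92 to 82 bases before the start. Nfkb2, on the plus strand, has 4 sites, of which the first 2 lie before the same start and the other 2 each before a different start. The first 2 and the last lie in annotated exons of other Nfkb2 transcripts and are shown as short stretches, at chr19:46304689-46304718, chr19:46304707-46304736 and chr19:46305695-46305724. The remaining site lies in no annotated exon, and its stretch is chr19:46305445-46305694.
Nfkbia: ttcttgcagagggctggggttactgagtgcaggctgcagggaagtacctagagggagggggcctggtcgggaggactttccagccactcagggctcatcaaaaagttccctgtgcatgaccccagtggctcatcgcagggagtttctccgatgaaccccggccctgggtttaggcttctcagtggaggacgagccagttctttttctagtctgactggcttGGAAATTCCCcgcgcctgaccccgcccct
Nfkbie: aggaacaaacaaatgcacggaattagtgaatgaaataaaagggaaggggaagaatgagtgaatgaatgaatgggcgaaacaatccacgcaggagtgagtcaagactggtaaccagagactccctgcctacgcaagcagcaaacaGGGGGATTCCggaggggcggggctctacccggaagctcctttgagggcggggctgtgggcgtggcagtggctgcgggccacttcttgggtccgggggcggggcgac
Rel: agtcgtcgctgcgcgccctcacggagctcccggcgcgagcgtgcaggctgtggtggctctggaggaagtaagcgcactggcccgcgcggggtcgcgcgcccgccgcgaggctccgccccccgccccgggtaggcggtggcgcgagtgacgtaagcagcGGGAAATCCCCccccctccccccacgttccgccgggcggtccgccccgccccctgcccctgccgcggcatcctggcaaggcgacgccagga
Nfkb2, first site: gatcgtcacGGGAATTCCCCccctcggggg
Nfkb2, next site: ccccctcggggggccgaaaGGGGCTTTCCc
Nfkb2, site outside exons: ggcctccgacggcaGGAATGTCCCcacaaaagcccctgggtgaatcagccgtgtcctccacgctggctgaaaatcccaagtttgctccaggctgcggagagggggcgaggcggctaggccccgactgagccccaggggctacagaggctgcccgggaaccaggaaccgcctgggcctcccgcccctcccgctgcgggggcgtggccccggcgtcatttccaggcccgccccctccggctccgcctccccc
Nfkb2, last site: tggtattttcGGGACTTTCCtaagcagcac

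The genes themselves lie on 7 chromosomes of GRCm38 (mm10, GENCODE M21). Rela is at chr19:5637483-5648130 and Nfkb2 at chr19:46304320-46312385. Nfkb1 is at chr3:135584655-135691547, Rel at chr11:23736847-23770970 and Relb at chr7:19606217-19629438. Nfkbia is at chr12:55489410-55492647, Nfkbib at chr7:28758251-28767512 and Nfkbie at chr17:45555703-45563169. Nfkbiz is at chr16:55811375-55838899 and Bcl3 at chr7:19808462-19822770. Psd overlaps the 3′ end of Nfkb2 by 299 bases on the opposite strand, Ccer2 overlaps that of Nfkbib by 718 bases, and 2 antisense genes overlap Bcl3. Away from the 3′ end, AC114539.1 overlaps Nfkb2 by 1292 bases and Sirt2 overlaps Nfkbib by 778 bases, both on the opposite strand. The sources used here do not state that counting used strand, so reads of these partners cannot be told apart from those of Nfkb2, Nfkbib and Bcl3. Gm43430 overlaps Nfkb1 by 3897 bases on the same strand, also away from its 3′ end, so strand could not separate these.

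Exposure to aSyn alone was compared with no treatment. With the experiment number as a block, 5 of the 10 genes rose: Nfkb2, Rel, Nfkbib, Nfkbie and Bcl3, by 1.59 to 2.29 fold. Rela, which encodes the principal transactivating subunit, and Nfkb1, which encodes the p105 precursor of p50, were not called. Over all genes tested, 19.2% were called in that fit, 8.95% higher and 10.2% lower. Without the block 0 of the 10 were called, against 2.5% of all genes, and 5 had an unadjusted p under 0.05. The fold change was above 0 for 9 of the 10, with a median of 0.66 against -0.04 over all genes tested.

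Nfkb2 encodes p100, the precursor of p52 in the alternative pathway. Its untreated levels were 44.6, 49.5, 58.5 and 29.9 CPM, and its levels after aSyn were 77, 75.8, 70.6 and 61.4 CPM. Every aSyn sample was above every untreated one. The log2 fold change was 0.64 ± 0.22 (SE, adjusted p 0.107 by edgeR), and 0.67 ± 0.17 with the block (adjusted p 0.00531).

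Rel encodes c-Rel, a transactivating subunit of immune cells. Rel stood at 27.0, 27.2, 19.1 and 19.98 CPM in untreated cells and at 40.7, 42.1, 27.5 and 39.6 CPM after aSyn. The groups did not overlap, although the aSyn sample of experiment 3 was only just above the highest untreated one. The fold change was 0.68 ± 0.28 (adjusted p 0.196 by edgeR), and 0.67 ± 0.19 with the block (adjusted p 0.0113).

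Bcl3 encodes a nuclear partner of p50 and p52 homodimers. It was at 13.6, 28.9, 20.6 and 9.69 CPM in untreated cells and at 32.3, 43.6, 31.7 and 86.2 CPM after aSyn. Experiment 4 had the lowest untreated and the highest aSyn value, and the groups did not overlap. The fold change of Bcl3 was 1.41 ± 0.49 (adjusted p 0.115 by edgeR), and 1.20 ± 0.31 with the block (adjusted p 0.00478). Nfkb2, Rel and Bcl3 were the 3 of the 10 whose aSyn samples all lay above the untreated ones, a pattern that 4.5% of all genes showed.

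Among the classical inhibitors, Nfkbie, which encodes I-kappa-B epsilon, was at 13, 13, 18.1 and 5.43 CPM in untreated cells and at 20.1, 18.4, 27.8 and 16.0 CPM after aSyn. It was higher in each of the 4 same-numbered pairs, but the groups overlapped. With the block the fold change of Nfkbie was 0.77 ± 0.27 (adjusted p 0.0388), and 0.74 ± 0.36 without it (adjusted p 0.277 by edgeR). Nfkbib, which encodes I-kappa-B beta, was at 62.5, 97.4, 65.1 and 37.1 CPM against 77.4, 112, 102 and 134 CPM. It too was higher in 4 of 4 pairs with overlapping groups, and its fold change was 0.70 ± 0.21 with the block (adjusted p 0.0168) and 0.70 ± 0.26 without (adjusted p 0.140 by edgeR).

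Nfkbia encodes I-kappa-B alpha, the inhibitor that is resynthesised quickly after activation. It was at 249.5, 258, 356 and 278 CPM in untreated cells and at 387, 399, 293 and 742 CPM after aSyn. Experiment 3 went the other way and experiment 4 was far above the rest. With the block the fold change was 0.54 ± 0.20 and narrowly missed the threshold (adjusted p 0.0522), and without it 0.68 ± 0.40 (adjusted p 0.393 by edgeR).

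The remaining 4 genes were not called in either fit. Rela was at 122, 121, 117 and 98.2 CPM in untreated cells and at 120, 136, 120 and 107 CPM after aSyn, a fold change of 0.08 ± 0.11. Nfkb1 had a fold change of -0.09 ± 0.24 and was lower in 3 of 4 pairs. Relb, which encodes the partner of p52, was higher in 4 of 4 pairs, with 0.38 ± 0.19 in the blocked fit (adjusted p 0.164 by edgeR). Nfkbiz, which encodes the nuclear protein I-kappa-B zeta, was higher after aSyn in 2 pairs and lower in 2, at 22.7, 74, 45.3 and 32.6 CPM in untreated cells and 47.7, 69.4, 19.0 and 77.2 CPM after aSyn. The pairs of Nfkbiz pointed in opposite directions, with experiments 1 and 4 higher and experiments 2 and 3 lower after aSyn.

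Without experiment 4, the blocked fit called 3 of the 10 (Nfkb2, Nfkbie and Bcl3) among 12.4% of all genes. Their fold changes were then 0.57 ± 0.12, 0.59 ± 0.15 and 0.80 ± 0.17 (adjusted p 0.00107, 0.00873 and 0.00211 by edgeR), so the fold change of Bcl3 was smaller. Rel had a fold change of 0.60 ± 0.21 in place of 0.67 and was not called (adjusted p 0.0636 by edgeR), and Nfkbib had 0.37 ± 0.14 in place of 0.70 (adjusted p 0.0763). Astrocyte markers moved with this comparison: 0 of 8 had a positive fold change, their median was -2.14 on the log2 scale, and 5 of 8 fell in the blocked fit, or 1 of 7 tested without experiment 4. Their summed level in experiments 1 to 4 was 11.3, 18.75, 77.65 and 139 CPM in untreated cells. After aSyn it was 13.9, 11.2, 16.7 and 29.3 CPM, so it was not lower in experiment 1. The summed level of the 10 microglial markers was 4508 to 7697 CPM and 2216 to 5756 CPM, with experiment 4 lowest in both. The part of these differences in the result was not tested.

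**Figure D1:**
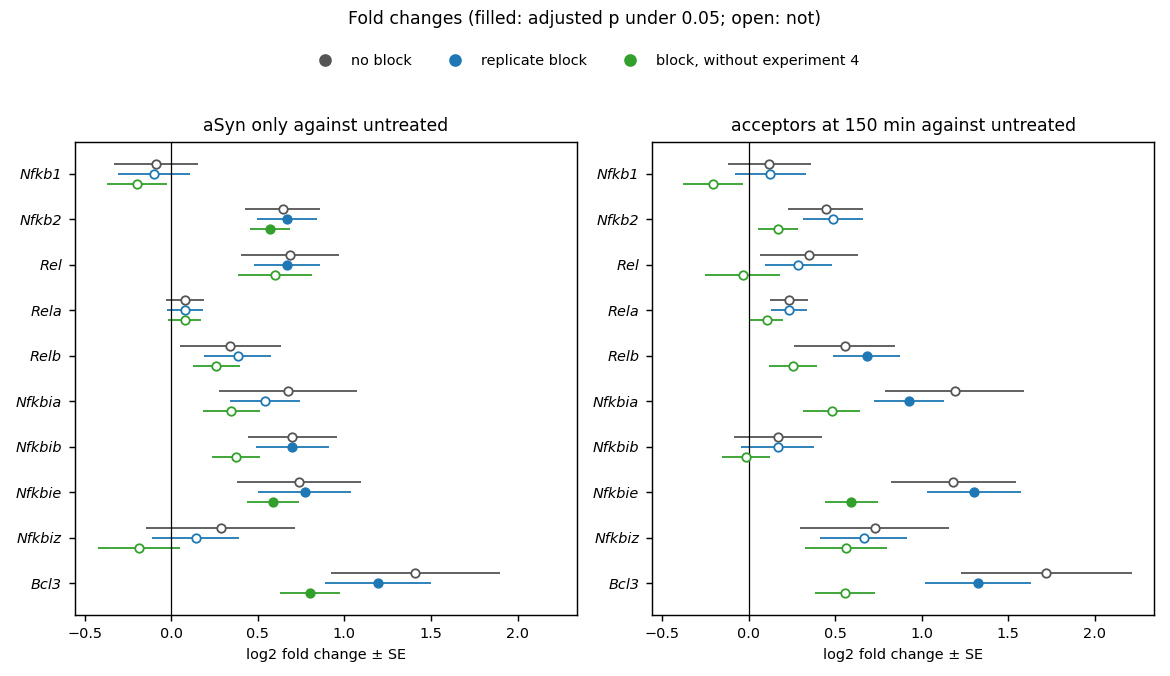
The log2 fold change with its standard error for each of the 10 genes is plotted for aSyn-only against untreated cells (left) and acceptors at 150 min against untreated cells (right), in the fit without block, with the replicate block, and with the block but without experiment 4. Filled points passed an adjusted p of 0.05: 5 and 4 genes with the block, 3 and 1 without experiment 4, and 0 without the block.

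The other genes of the pathway were counted in the same comparison, from lists drawn up with earlier results of these data known. Of 25 kinases and adaptors, 1 rose without the block, when 1.6% of all genes rose and 2.5% were called in either direction. With the block 6 of the 25 rose, when 8.95% of all genes rose and 19.2% were called in either direction. The median fold change of the 25 was 0.14. The gene called without the block was Traf2, an adaptor of TNF receptors, at 6.88 ± 2.76 CPM (SD, n = 4) in untreated cells and 16.9 ± 6.13 CPM (SD, n = 4) after aSyn, with an adjusted p of 0.0205 by edgeR. With the block the 6 were Ikbke, Traf1, Traf2, Birc3, Myd88 and Irak2. Of these, Ikbke, a kinase related to the I-kappa-B kinases, rose by 1.34 ± 0.22 (adjusted p 4.22e-05 by edgeR), and the adaptor gene Traf1, itself a known target, by 2.81 ± 0.66 (adjusted p 0.0021). The kinase genes Chuk and Ikbkb, whose products phosphorylate the inhibitors, were not called in either fit with 4 experiments, with fold changes of 0.14 ± 0.14 and -0.25 ± 0.16.

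Of 11 negative regulators, 2 rose without the block and 4 with it. The former were Tnip1, a partner of the ubiquitin editor A20, which rose by 1.15 ± 0.32 (adjusted p 0.0384 by edgeR), and Zc3h12a, an RNase that degrades cytokine transcripts, which rose by 1.17 ± 0.32 (adjusted p 0.0385 by edgeR). With the block Tnfaip3, which encodes A20, and Irak3, which encodes an inhibitory kinase homologue, rose as well, by 1.08 ± 0.30 and 1.47 ± 0.40 (adjusted p 0.00917 and 0.00845 by edgeR). Of 8 receptors, 1 rose without the block and 2 with it. The first was Tnfrsf1b, TNF receptor 2, which went from 303 ± 105 to 918 ± 318 CPM (SD, n = 4 each), a fold change of 1.60 ± 0.28 (adjusted p 0.00105 by edgeR). With the block Tlr2, a Toll-like receptor gene, was also called, at 0.76 ± 0.24 (adjusted p 0.0251 by edgeR).

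Of 18 known targets, 4 rose without the block, and 12 rose and 1 fell with it, with a median fold change of 2.01 without the block. The neutrophil chemokine gene Cxcl2 rose by 3.14 ± 0.67 (adjusted p 0.00462), Cxcl1 by 3.99 ± 1.01 (adjusted p 0.0209) and the survival gene Bcl2a1b by 0.84 ± 0.18 (adjusted p 0.00423, all by edgeR). The remaining one was Icam1, at 1.08 ± 0.30 (adjusted p 0.0384 by edgeR). Bcl2a1b has near-identical paralogs, so its counts are uncertain. Ccl4 was the target that fell with the block, by 1.37 ± 0.29 on the log2 scale (adjusted p 0.000841 by edgeR), and is named after its value was seen. Tnf had a fold change of 0.02 ± 0.34. The subunit and inhibitor genes thus had a median fold change of 0.66, between those of the kinases and of the targets, and no test of that order was made.

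In the blocked fit without experiment 4, 12.4% of all genes were called. There 4 kinases and adaptors rose (Ikbke, Traf1, Traf2 and Birc3) and Ikbkb fell, out of 25. Of 11 negative regulators 5 rose, of 7 receptors tested 2 rose, and of 17 targets tested 11 rose and 2 fell. Traf1 then rose by 1.70 ± 0.26 in place of 2.81 (adjusted p 3.27e-05 by edgeR), while Myd88 and Irak2 were no longer called (adjusted p 0.317 and 0.0742). These counts without experiment 4 were added after the data were seen.

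In acceptors at 150 min against untreated cells 0 genes of these 4 lists were called without the block, against 0.137% of all genes. With it, when 4.78% of all genes were called, 2 of the 25 kinases and adaptors, 3 of the 11 negative regulators, 1 of the 8 receptors and 7 of the 18 targets were called, of which 1 target was lower and the rest higher. Without experiment 4 (3.19% of all genes) these counts were 2, 2, 0 and 5, in each case out of the genes still tested, with Ikbkb and 1 target lower. In donors against acceptors at 30 min the blocked counts were 4, 2, 2 and 14, again with 1 target lower, when 10.8% of all genes were called. Without experiment 4 (8.58%) they were 4, 4, 3 and 9, all higher. At 30 min the targets had a median fold change of 1.33 and the 10 subunit and inhibitor genes 0.35, both in the blocked fit.

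**Figure D2:**
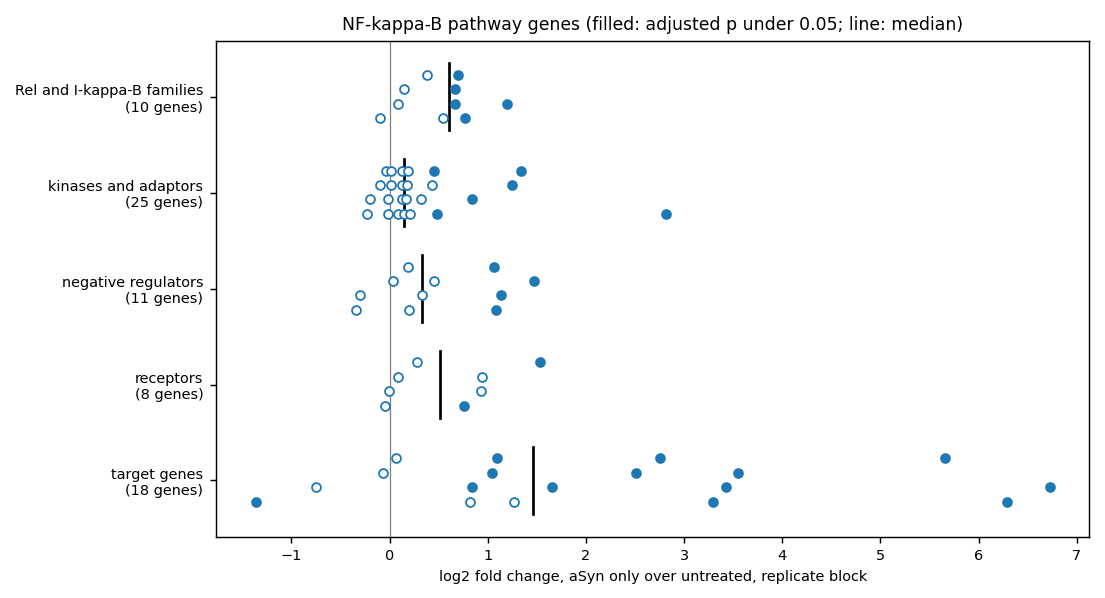
Each point is the log2 fold change of 1 gene in aSyn-only against untreated cells in the blocked fit, for the 10 Rel and I-kappa-B family genes and 4 lists of other pathway genes. Filled points passed an adjusted p of 0.05, and lines are medians. The list of 18 targets reaches the highest values, for Il6, Il1a and Nos2, whose untreated means were 0.019, 0.27 and 0.22 CPM. After aSyn their SDs (4.62, 59.6 and 27.6 CPM) exceeded their means (2.41, 30.9 and 16.1 CPM). Without experiment 4, Il1a and Nos2 had 2.95 and 3.17 in the blocked fit, and Il6 was not tested.

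Donors were compared with aSyn-only cells to see what differed after co-culture in cells already loaded with aSyn. Donors had also been sorted, which is not stated for aSyn-only cells, so co-culture and sorting cannot be told apart here. None of the 10 genes was called at any of the 6 times, with or without the block, and in this comparison few genes were called at all. The share of all genes called was 0% from 0 to 150 min in both fits, and 0.0304% without and 0.304% with the block at 300 min. Without the block 0 of the 10 had an unadjusted p under 0.05 at any time, and with it 1 had at 150 min and 1 at 300 min, Rel in both cases.

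The fold changes against aSyn-only cells lay between -0.35 and 0.43 at 0 min, with standard errors of 0.12 to 0.52. At 300 min 1 of the 10 fold changes was above 0 and the median was -0.08, against 0.01 over all genes. Bcl3 was at 16.7, 25.5, 28.7 and 67.1 CPM in donors at 300 min, below the same-numbered aSyn-only sample in all 4 experiments. Its fold change was -0.49 ± 0.48 without the block (adjusted p 1 by edgeR) and -0.55 with it, called in neither fit. Without the block and without experiment 4 it was -0.61 ± 0.27, also not called (adjusted p 0.812 by edgeR). With the block the lowest adjusted p of any of the 10 at 300 min was 0.517, for Rel. Rel was at 28.4, 23.4, 23.9 and 33 CPM in donors at 150 min, again below aSyn-only cells in all 4 pairs, at -0.47 ± 0.28 (adjusted p 1 by edgeR).

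Acceptors were compared with untreated cells, which asks whether cells not given aSyn differed after co-culture. Acceptors had also received the dye and been sorted, and sorting is not stated for untreated cells. Co-culture, dye and sorting therefore cannot be told apart in this comparison. Rises passed the test only with the block and only at 150 min, where Relb, Nfkbia, Nfkbie and Bcl3 were called, 4 of the 10. The share of all genes called with the block was 0.995%, 2.25%, 3.6%, 4%, 4.78% and 0.623% from 0 to 300 min. Without the block 0 of the 10 were called at any time, against 0%, 0%, 0.114%, 0.0683%, 0.137% and 0% of all genes, and 0, 1, 1, 2, 5 and 2 of the 10 had an unadjusted p under 0.05. These comparisons share the untreated samples, so the times are not independent of each other. Without the block the fold change was above 0 for 8, 9, 9, 9, 10 and 9 of the 10 genes from 0 to 300 min, with medians of 0.31, 0.30, 0.32, 0.33, 0.50 and 0.44.

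At 150 min the acceptor values of Bcl3 were 23.9, 35.3, 33.3 and 147 CPM. Bcl3 was higher than in the same-numbered untreated sample in all 4 experiments, by 0.81, 0.29, 0.69 and 3.91 on the log2 scale. The groups overlapped, and experiment 4 lay far above the other 3. The blocked fold change was 1.33 ± 0.31 (adjusted p 0.00808 by edgeR), and 1.72 ± 0.49 without the block (adjusted p 0.155).

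Nfkbie was at 18.1, 20.6, 28.1 and 45.2 CPM in acceptors at 150 min, higher in all 4 pairs, by 0.47, 0.65, 0.63 and 3.02 on the log2 scale. Its lowest acceptor value equalled the highest untreated one to within rounding, so the groups touched. The fold change of Nfkbie was 1.30 ± 0.27 with the block (adjusted p 0.00293 by edgeR) and 1.18 ± 0.36 without it (adjusted p 0.203).

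Nfkbia was at 388, 393, 416 and 1406 CPM at 150 min, all above the untreated range of 249.5 to 356 CPM. Non-overlap of this kind, higher in acceptors, was found for Nfkbia alone of the 10 at 150 min and for 2.41% of all genes. The same pattern was found for Rela at 15 min (1.85% of all genes) and at 30 min (1.91%), and for Rel at 300 min (2.34%). The blocked fold change of Nfkbia was 0.93 ± 0.20 (adjusted p 0.00476 by edgeR), and 1.19 ± 0.40 without the block (adjusted p 0.296).

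Relb was at 40.3, 44.3, 44.7 and 49.7 CPM at 150 min against 42.1, 38.9, 27.5 and 13.5 CPM in untreated cells. The acceptor values were close together and the untreated ones spread, with experiment 1 slightly lower in acceptors. The fold change of Relb was 0.68 ± 0.19 with the block (adjusted p 0.0341 by edgeR).

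For Rela the higher acceptor values came at the early times. They were 152, 127, 154 and 150 CPM at 15 min and 141, 143, 147 and 133 CPM at 30 min, against 98.2 to 122 CPM in untreated cells. The fold changes were 0.35 ± 0.11 and 0.30 ± 0.11, small in size, with adjusted p-values of 0.393 and 0.405, or 0.0619 and 0.0984 with the block (all by edgeR), so neither was called. The difference between Rela and the inhibitors was not tested.

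Without experiment 4 the blocked fit called 1 of the 10 in acceptors, Nfkbie at 150 min. Its fold change was then 0.59 ± 0.15 (adjusted p 0.0249 by edgeR). The shares of all genes called were 2.87%, 1.93%, 4.56%, 2.8%, 3.19% and 0.0765% from 0 to 300 min. Bcl3 had 0.56 ± 0.17 (adjusted p 0.0739), Nfkbia 0.48 ± 0.16 (adjusted p 0.0996) and Relb 0.26 ± 0.14 (adjusted p 0.343, all by edgeR) at 150 min in that fit. The fold changes of Bcl3, Nfkbie, Nfkbia and Relb were thus smaller without experiment 4, in each case still above 0. The summed astrocyte markers in experiments 1 to 4 were 13.1, 12.5, 35.1 and 38.0 CPM in acceptors at 150 min. In untreated cells they were 11.3, 18.75, 77.65 and 139 CPM, and 1 of 8 markers fell with the block. Of 4 oligodendrocyte markers 3 fell with the block, with a median fold change of -2.32 in that fit. The part of these markers in the result was not tested.

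**Figure D3:**
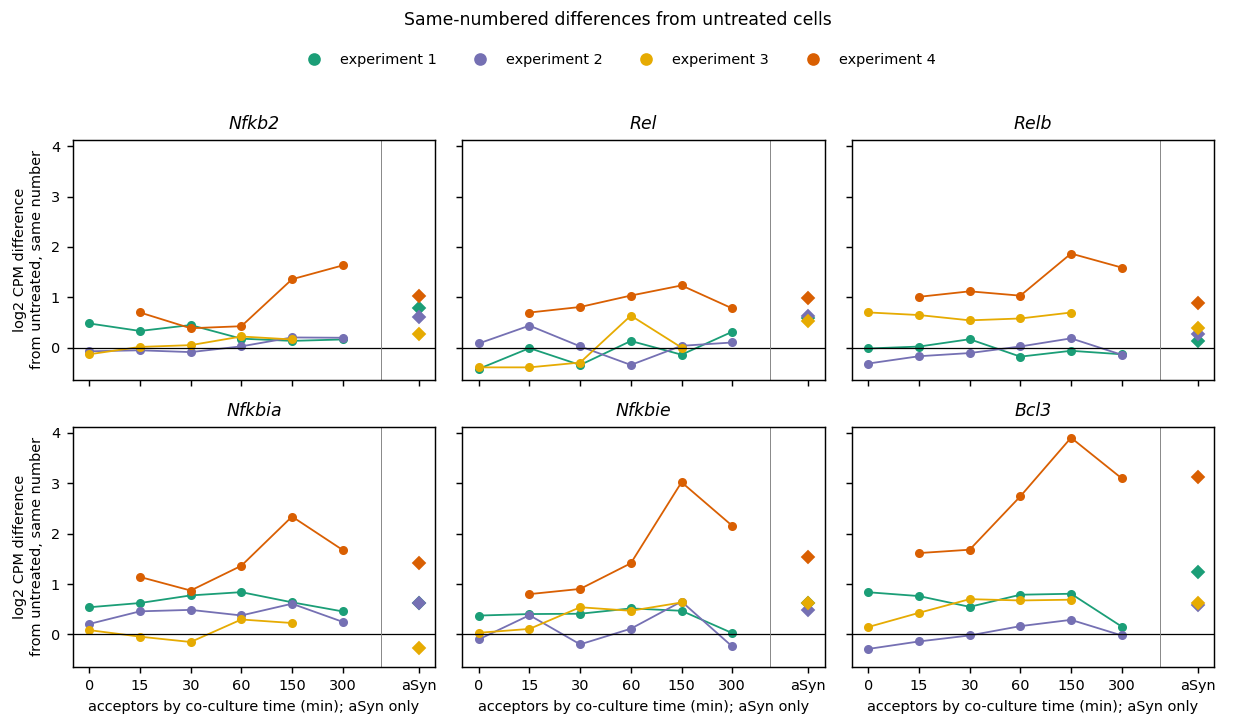
The log2 CPM difference from the same-numbered untreated sample is plotted for 6 genes, for acceptors by co-culture time in min and, as diamonds, for aSyn-only cells, with 1 colour for each experiment. Experiment 4 lies highest for Bcl3 at 150 min, at 3.91, while the other 3 experiments lie between 0.29 and 0.81.

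The F test for any difference among the 6 acceptor times called 0 of the 10, with or without the block, against 0.00759% and 0.137% of all genes. Nfkbie had the lowest p of the 10 in the blocked fit (0.00615, adjusted p 0.397 by edgeR). The same test among the donor times called 0 of the 10 (0.0607% and 0.577% of all genes). Without experiment 4 and with the block, Bcl3 was called in donors over time, when 1.58% of all genes were. In experiments 1 to 3 Bcl3 was at 32.0, 48.4 and 42.0 CPM in donors at 0 min and at 16.7, 25.5 and 28.7 CPM at 300 min, so the later values were all below the earlier ones.

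Donors were compared with acceptors sorted from the same co-culture time. With the block 1 gene was called, Rel at 30 min, when 10.8% of all genes were called. At 0, 15, 60, 150 and 300 min 0 of the 10 were called, against 4.28%, 9.57%, 6.7%, 5.19% and 1.38% of all genes. Without the block 0 were called at any time, against 0.251%, 0.888%, 0.805%, 0.418%, 0.167% and 0.0304% of all genes, and 0, 1, 1, 0, 1 and 1 of the 10 had an unadjusted p under 0.05. The median fold change of the 10 without the block was 0.41, 0.30, 0.34 and 0.30 from 0 to 60 min and -0.15 and -0.19 at 150 and 300 min. The medians over all genes lay between -0.03 and 0.00.

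Rel at 30 min was at 36.2, 37.2, 29.4 and 40.7 CPM in donors and at 21.3, 27.7, 15.5 and 35.1 CPM in acceptors. It was higher in donors in all 4 pairs, and the groups overlapped. The fold change of Rel was 0.57 ± 0.19 with the block (adjusted p 0.0451 by edgeR) and 0.53 ± 0.28 without (adjusted p 0.488). At 60 min Rel was higher in 1 of 3 pairs, and its fold change was -0.06 in the blocked fit.

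Bcl3 at 15 min was at 38.3, 41.6, 46.6 and 78.9 CPM in donors and at 23.2, 26.2, 27.7 and 30.0 CPM in acceptors. Every donor value of Bcl3 was above every acceptor value at 15 min (a pattern shown by 3.12% of all genes), as it also was at 0 min (8.63%) and at 30 min (3.31%). Nfkb2 and Relb shared that pattern at 0 min, and Nfkbib showed it at 60 min (3.85%). The fold change of 0.86 ± 0.30 in the blocked fit did not pass the threshold (adjusted p 0.0632 by edgeR). At 150 min the order was reversed in 3 of 4 pairs, with donors at 17.2, 27.4, 39.9 and 70.3 CPM.

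Rela was lower in donors in 4 of 4 pairs at 15 and at 30 min, and at 15 min every donor value was below every acceptor value (2.73% of all genes). Its fold change was -0.28 ± 0.10 at 15 min in the blocked fit (adjusted p 0.0747 by edgeR). Nfkbib was higher in donors in 4 of 4 pairs at 15 and at 150 min, with blocked fold changes of 0.48 ± 0.21 (adjusted p 0.141) and 0.52 ± 0.21 (adjusted p 0.145, both by edgeR). Neither gene was called at any time.

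The values without experiment 4 differed most here: the blocked fit called 12 gene and time combinations in place of 1. They were Nfkb2, Relb, Nfkbie and Bcl3 at 0 min, where experiment 4 has no library and only its share in the estimate of spread is removed. They were Nfkb2 and Bcl3 at 15 min, Nfkb1, Nfkb2, Rel and Bcl3 at 30 min, Nfkb2 at 60 min and Nfkbie at 300 min. All 12 were higher in donors, by 0.41 to 0.77. The shares of all genes called were 11.1%, 6.66%, 8.58%, 4.5%, 3.26% and 1.17% from 0 to 300 min. Nfkb2 had fold changes of 0.48 ± 0.12, 0.43 ± 0.12, 0.47 ± 0.12 and 0.55 ± 0.13 from 0 to 60 min in that fit (adjusted p 0.00586, 0.0195, 0.00861 and 0.00973 by edgeR).

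**Figure D4:**
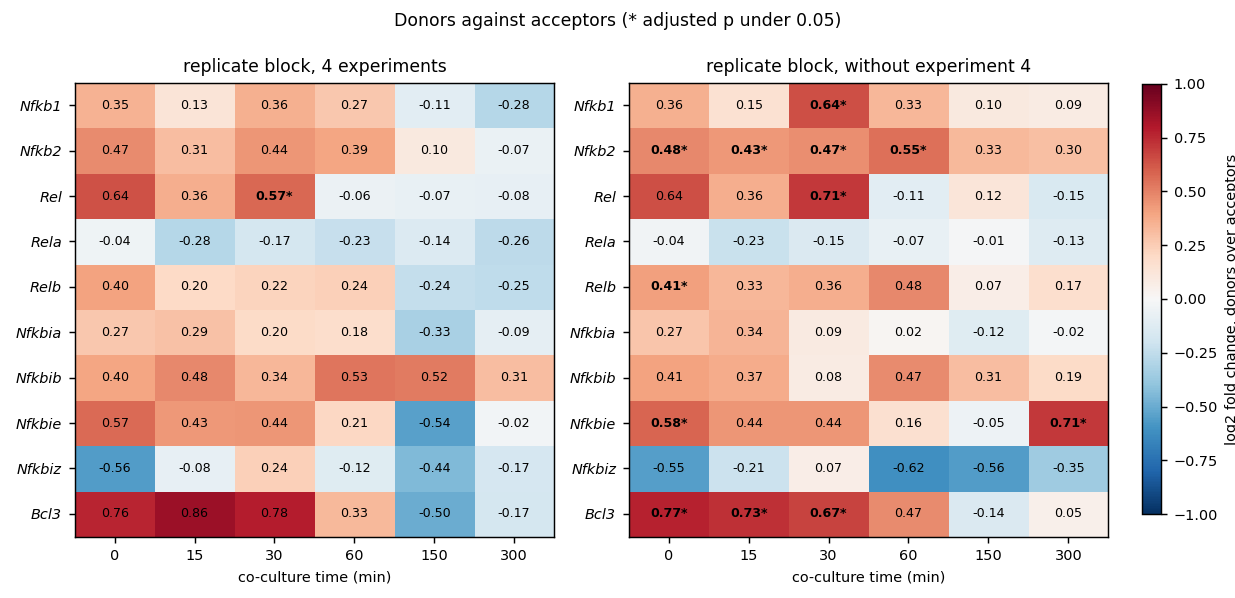
The log2 fold change of donors over acceptors is given for the 10 genes at each co-culture time in min, in the blocked fit with all 4 experiments (left) and without experiment 4 (right), with asterisks at an adjusted p under 0.05. The left panel holds 1 asterisk, Rel at 30 min, and the right panel 12, of which Nfkb2 holds 4.

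Whether the donor to acceptor difference varied over the 6 times was tested as an interaction. It called 0 of the 10 (0% of all genes without and 0.0456% with the block). A further contrast, added after the data were seen, set the gap between donors and acceptors at each time against the gap between aSyn-only and untreated cells. Without the block it called 0 of the 10 at each time, against 0% of all genes except 0.0152% at 150 min. With the block it called 1, Bcl3 at 150 min, where the gap was smaller by 1.69 ± 0.43 on the log2 scale (a difference of -1.69, adjusted p 0.0405 by edgeR, and -2.04 ± 0.68 with adjusted p 0.796 without the block). Without experiment 4 the blocked difference was -0.95 ± 0.25 and was not called (adjusted p 0.0781 by edgeR). It was also not called without experiment 1, 2 or 3, at -1.69, -2.06 and -2.10 (adjusted p 0.26, 0.102 and 0.11 by edgeR). The shares of all genes called with the block were 0%, 0.0152%, 0.038%, 0.364%, 0.957% and 0.737% from 0 to 300 min. At 150 and 300 min the difference was below 0 for all 10 genes, with medians of -0.60 and -0.53 without the block. In the blocked fit without experiment 4 this did not hold for all 10. There Nfkb1 was above 0 at both times (0.30 and 0.28) and Nfkbie at 300 min (0.12), while the rest stayed below 0.

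Over the 14 groups the levels of each gene followed an order in which no 2 neighbours were separated by their ranges. Untreated cells had the lowest mean for 6 genes: Nfkb2, Relb, Nfkbia, Nfkbib, Nfkbie and Bcl3. The ratio of the highest to the lowest group mean was 3.30 for Bcl3, 2.28 for Nfkbia and 2.26 for Nfkbie, and 1.34 for Rela and 1.36 for Nfkb1. Acceptors at 150 min had the highest mean for Nfkbia, at 651 ± 504 CPM, Nfkbie, at 28.0 ± 12.2 CPM, Nfkbiz, at 72.5 ± 22.8 CPM, and Bcl3, at 60.0 ± 58.5 CPM (SD, n = 4 each). The standard deviations of Nfkbia and Bcl3 were close to the means, with experiment 4 far above the other 3.

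The highest mean of Nfkb2 was 75.4 ± 9.35 CPM in donors at 0 min (SD, n = 3), and that of Relb was 51.8 ± 6.57 CPM in the same group. Rel was highest in aSyn-only cells, at 37.5 ± 6.74 CPM (SD, n = 4), and lowest in acceptors at 0 min, at 21.2 ± 7.21 CPM (SD, n = 3). Experiment 4 has no library at 0 min, so the means at 0 min do not cover the same experiments as most others. In the 10 groups that hold all 4 experiments, experiment 4 was lowest for Nfkb2 in 7 and for Relb in 9. It was highest for Rel in 6 of the 10. The part of this in the order of the means was not tested. The 6 highest means of Rela were those of the 6 acceptor groups, from 128 to 146 CPM, and the lowest was 108 ± 9.64 CPM in donors at 300 min (SD, n = 4). Nfkbib had its 7 highest means in the 7 groups that had received aSyn, from 103 to 112 CPM, and the 6 acceptor groups at 73.8 to 89.6 CPM. Nfkb1 had group means between 35 and 47.7 CPM, with no such arrangement.

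**Figure D5:**
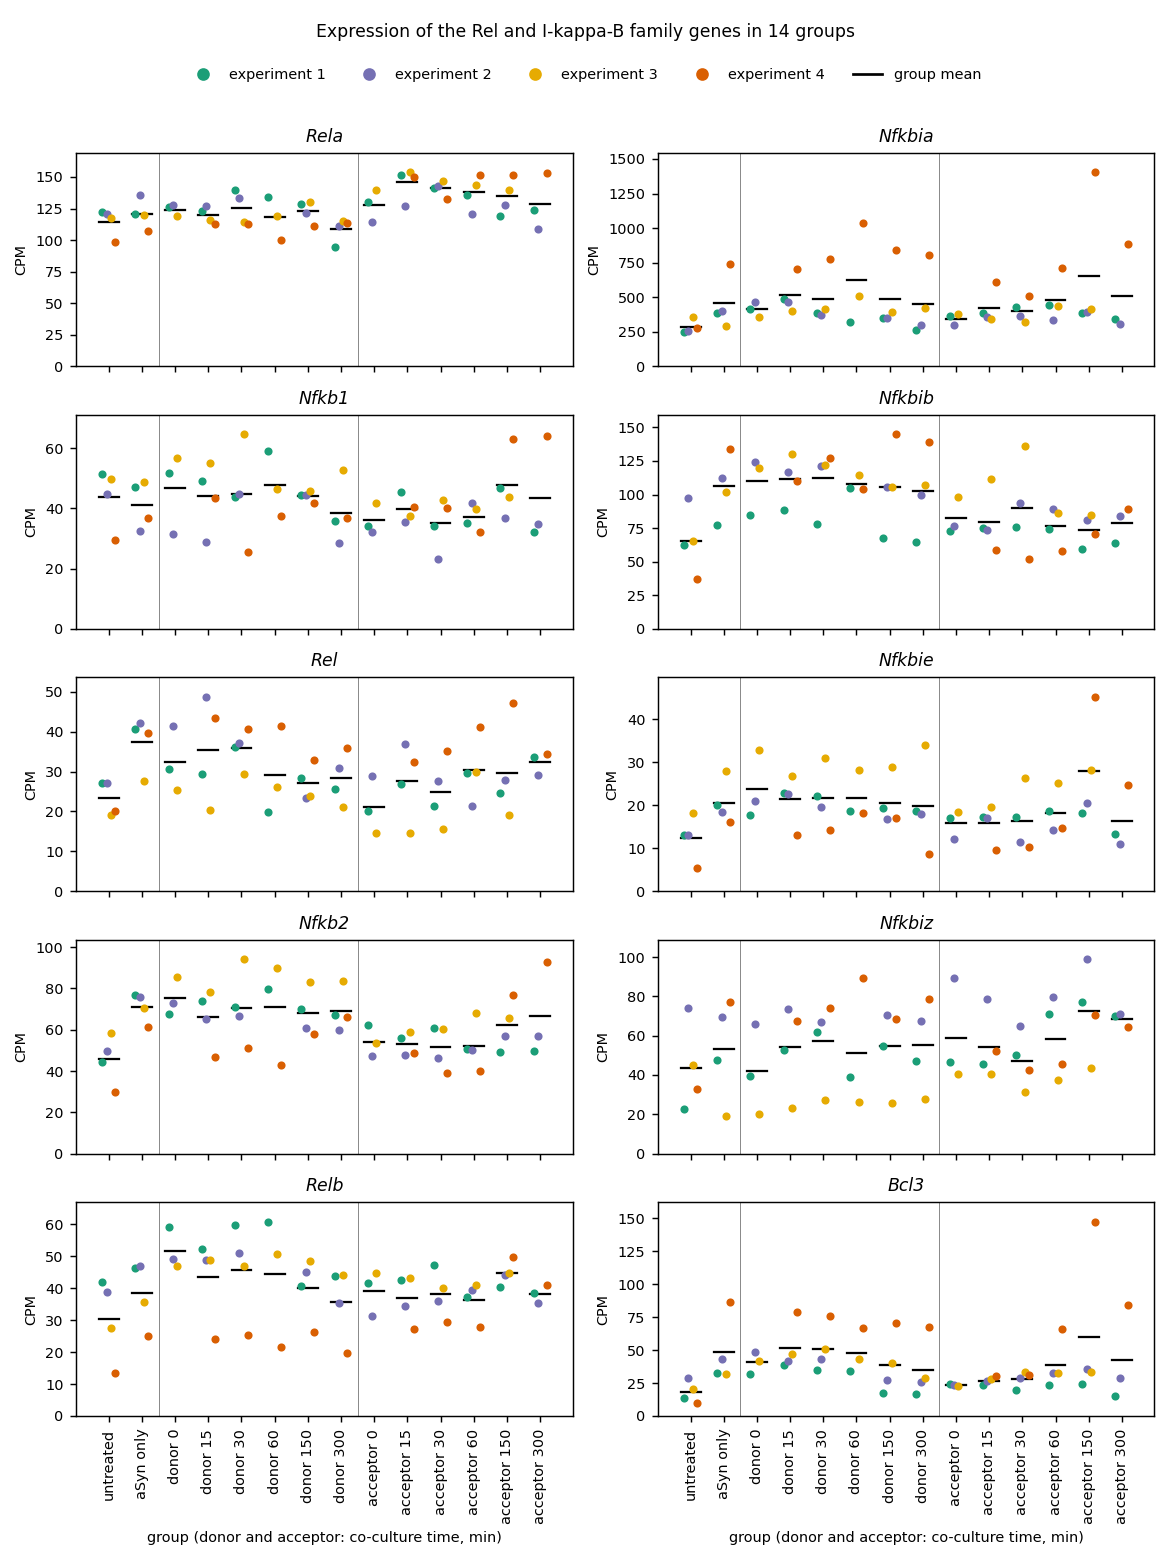
CPM in every unit is plotted for the 10 genes in the 14 groups, with 1 colour for each experiment and a bar at the group mean. Experiment 4 lies highest for Nfkbia in 9 of the 10 groups that hold all 4 experiments and lowest for Relb in 9 of 10.

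Experiments differed as much as groups for several of the genes. The experiment held 62.7% of the sum of squares of log2 CPM of Nfkbiz and the group 14.9%. These shares are not adjusted for the number of levels, 4 experiments and 14 groups. Some share falls to the groups even where they do not differ, and more than falls to the experiments, so the 2 shares are not directly comparable. For Nfkbia the shares were 60.8% and 20.9%, and for Relb 52.4% and 20.6%. Rela was at the other end, with 1.99% for the experiment and 49.2% for the group. Nfkb2 and Nfkbib had 40.5% and 40.6% for the group. The median of Nfkbiz was 70.8 CPM in experiment 2 and 27.7 CPM in experiment 3, and that of Nfkbia was 760 CPM in experiment 4 against 354 to 394 CPM in the other 3. Relb showed the opposite arrangement, with a median of 25.7 CPM in experiment 4 against 39.6 to 44.7 CPM.

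The likeness of patterns was described by Pearson's r of mean log2 CPM over the 14 groups, after each experiment's mean was subtracted. The groups share experiments. The means include experiment 4, which lay far above the others for Nfkbia and Bcl3 in acceptors at 150 min, and r was not computed without it. Of the 45 pairs among the 10 genes, 3 had an r of at least 0.9: Nfkbie with Bcl3 (0.918), Nfkbia with Nfkbie (0.908) and Nfkbia with Bcl3 (0.903). Rela had negative values with Nfkb2 (-0.387) and Nfkbib (-0.39). Among 7766 genes with a mean of at least 10 CPM, the genes most like Nfkb2 were Icam1 (0.971), which encodes an adhesion molecule, Gpr84 (0.96) and Clec4d (0.949). Those most like Nfkbia were Cd14 (0.918), a lipopolysaccharide co-receptor gene, Skil (0.915), a regulator of TGF-beta signalling, and Nfkbie (0.908). For Nfkbiz the highest values were 0.857 with Pon3, 0.819 with Ccser2 and 0.814 with Tusc2. Bcl3, chosen after its values were seen, was most like Skil (0.975), followed by the cytokine receptor gene Csf2rb and the cytokine signalling inhibitor gene Socs3 (0.959 each).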

How the data were processed

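RNA of primary mouse microglia was sequenced with the QuantSeq 3′ FWD kit as 50 bp single reads, per the labels' protocols. What the authors deposited, per the file headers, were raw counts for each gene symbol. STAR, Partek, DESeq2 and mm10 are named in the submitters' processing notes, with no versions. Strand use in counting is not given in the sources used here. The deposited normalized signal equalled the count over a size factor within 0.05 for 100% of values and was used for that check only.

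The genes described, the pathway lists and the tests were chosen with earlier results of these data known. Same-numbered untreated libraries (numbers 2 and 4) were summed, giving 52 units, because their counts differed less (chi-square per degree of freedom 12.1 and 10.3) than those of other untreated pairs (24.2 to 288). Counts of 13169 genes (filterByExpr, minimum count 10) were fitted with edgeR 4.0.16 in R 4.3.3 (TMM, quasi-likelihood F test) on group means over all 14 groups, with Benjamini-Hochberg adjustment over all genes tested. All 10 genes passed the filter. Totals were 7807389 to 15537493 counts. Standard errors are the fold change over the square root of F. The fit was tested on simulated data.

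Numbers are shared across groups in the titles. Deviations from group means of same-numbered samples correlated in every pair (r at least 0.199, means 0.339 to 0.593), so the numbers were taken as pairing the samples. Alternatives were the replicate block, RLE normalization, no filter, 6 untreated units, only the groups compared, DESeq2 1.42.0 and leaving out each experiment. Blocked fits that left out experiment 1, 2 or 3, the block with RLE, DESeq2 with the block, and list counts without experiment 4 were added after the data were seen. The genes named beyond the 10 were the 3 with the smallest p among those called in each list and the 3 genes most like Nfkb2, Nfkbia and Nfkbiz; others (Chuk, Ikbkb, Icam1, Ccl4, Tnf, genes called only with the block) were chosen after their values were seen. Promoter windows came from RefSeq (GRCm38.p6) and gene positions from GENCODE M21.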

Additional observations from a re-analysis of the deposited data

Results flagged for a closer look

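In groups of 4 units a value was marked when its gap to its neighbour exceeded Dixon's 95% limit for the group's range. This marked 8 of 100 gene and group combinations, where chance marks about 1 in 20, and 6 of the 8 came from experiment 4. Nfkbia in experiment 4 was high in donors at 30 min (777 CPM, next value 412) and at 150 min (844 CPM, next 394), and in acceptors at 15 min (612 CPM, next 384) and at 150 min (1406 CPM, next 416). Bcl3 in experiment 4 was high in acceptors at 150 min (147 CPM, next 35.3). Relb in experiment 4 was low in donors at 15 min (24.2 CPM, next 48.8). Outside experiment 4, Nfkbib was low in donors at 30 min in experiment 1 (78.4 CPM, next 121) and Rela was low in acceptors at 15 min in experiment 2 (127 CPM, next 150).

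For Bcl3 the donor to acceptor gap at 150 min differed from the gap between aSyn-only and untreated cells, by -1.69 with the replicate block (adjusted p 0.0405 by edgeR). Without the block the adjusted p was 0.796. Without experiment 4 the blocked difference was -0.95 (adjusted p 0.0781), and without experiment 1, 2 or 3 the adjusted p was 0.26, 0.102 and 0.11 (all by edgeR).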

How the results depend on the processing

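The counts of called genes among the 10 depended mainly on the replicate block and on experiment 4. In aSyn-only against untreated cells 0 were called without the block and 5 with it, 5 with the block and RLE normalization, 4, 4, 4 and 3 with the block and without experiment 1, 2, 3 or 4, 6 with DESeq2 and the block, and 1 with 6 untreated units. In acceptors against untreated cells, over 6 times, these counts were 0, 4, 4, 4, 5, 4, 1, 7 and 1, and DESeq2 without the block gave 1. In donors against acceptors they were 0 without and 1 with the block, 1 with the block and RLE, 2 with DESeq2 and the block, 12 with the block and without experiment 4, and 0 with the block and without experiment 1, 2 or 3. In donors over time the block without experiment 4 gave 1 in place of 0. The cause of these changes was not tested, but each experiment left out also leaves fewer samples. Shares of all genes called are given above only for the fits without the block, with it, and with it but without experiment 4. For the other settings no share stands beside the counts, so a higher count may reflect more calls among all genes. Leaving out each replicate without the block gave 0 to 0 in each comparison. RLE normalization alone, no filter and fits of only the groups compared gave 0 for every comparison, and RLE moved the median of all genes by at most 0.017 on the log2 scale in size. The 11 fold changes called in the blocked fit kept their sign under every alternative run, and 5 of them passed with the block and without experiment 4, 8, 8 and 6 without experiment 1, 2 or 3.

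Co-culture groups at 0 min hold 3 experiments and cannot show what experiment 4 did there.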
